A study of Mus musculus with 20 samples.

Results

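The genes described here are 10 enzymes and helpers of oxidative protein folding in the endoplasmic reticulum (ER): *P4hb* (NCBI gene 18453), *Pdia3* (14827), *Pdia5* (72599), *Txndc5* (105245), *Txndc12* (66073), *Ero1a* (50527), *Ero1b* (67475), *Prdx4* (53381), *Qsox1* (104009) and *Erp44* (76299). They were chosen by gene symbol, and all 10 were found among the 18754 genes listed in all 4 expression tables. RNA from whole retinas of C57BL/6J-background mice was sequenced in bulk as 20 libraries, with 4 groups of 5. *Atf6*+/+ and *Atf6*-/- mice of both sexes underwent oxygen-induced retinopathy (OIR), in which pups breathed 75% oxygen from postnatal day (P) 7 to P12 and then room air until P17, when retinas were collected. Wild-type P30 mice without OIR received 1 μL of saline or of 10 μM Ceapin-A7, a small molecule that blocks ATF6, by intravitreal injection into both eyes, and retinas were collected 24 h later. The sample labels give 0.05 to 0.1% of solvent for both injections, whereas the study's methods give 0.01% for Ceapin-A7 and 0.05% for saline. The knockout is a germline allele with a premature stop codon, so every cell of the animal carries it, and no group of P17 mice kept in room air was analysed here.

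Many proteins that enter the ER acquire disulfide bonds. Protein disulfide isomerases place and rearrange these bonds. The ERO1 oxidases recharge the isomerases by taking electrons from them and passing these on to oxygen, which makes hydrogen peroxide. Peroxiredoxin 4 consumes that peroxide and in doing so oxidises isomerases as well. The unfolded protein response, of which ATF6 is one sensor, is known to raise many ER folding genes, and hypoxia is known to raise *Ero1a*. The retina makes large amounts of disulfide-bonded secretory and membrane proteins.

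Because ATF6 acts on ER stress response elements (ERSE) in promoters, the promoter sequences of the 10 genes are shown for the members in which a response motif was matched and for the hypoxia-regulated member. Windows were taken from RefSeq on GRCm38.p6, a build other than that of the expression values, and only the 250 bases before each start were searched, on both strands. All 10 genes had a window, 13 windows in all, since *Erp44* has alternative starts and so has *Txndc5*. The exact ERSE, CCAAT, 9 further bases and CCACG, lay in 0.113% of all 32851 windows and in 1 of the 10 genes, *Ero1b*, at positions -201 to -183 from the start on the strand opposite to the gene. Of the 10 genes on a list of known ATF6 targets, 8 had a window, and 4 of these held the motif (*Hspa5*, *Hsp90b1*, *Calr* and *Creld2*). The ERSE of *Ero1b* is set below beside those of the target list, each written along the strand that matches, with CCAAT and CCACG in capitals:
Ero1b: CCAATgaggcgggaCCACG
Hspa5: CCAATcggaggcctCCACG
Calr: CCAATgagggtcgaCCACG
Creld2: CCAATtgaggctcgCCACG
Hsp90b1, farther site: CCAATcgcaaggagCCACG
Hsp90b1, nearer site: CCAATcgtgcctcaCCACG

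In the 250 bases before the *Ero1b* start, written along the gene at chr13:12565633-12565882 on the plus strand, the ERSE reads in reverse, and its outer blocks are in capitals:
Ero1b: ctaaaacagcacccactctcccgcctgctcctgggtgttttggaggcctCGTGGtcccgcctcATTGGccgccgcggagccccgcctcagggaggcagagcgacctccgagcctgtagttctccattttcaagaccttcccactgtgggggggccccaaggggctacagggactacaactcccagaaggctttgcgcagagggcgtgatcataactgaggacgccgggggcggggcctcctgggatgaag
A second form of the element, ERSE-II (ATTGG, 1 further base and CCACG), lay in 0.0304% of windows and in none of the 10 genes. The ATF6 and XBP1 motif TGACGTGA or TGACGTGG lay in 0.913% of windows and in 1 member, *Txndc5*, at positions -138 to -131 from 1 of its 3 annotated starts, at chr13:38527915-38528164 on the minus strand, with the motif in capitals:
Txndc5: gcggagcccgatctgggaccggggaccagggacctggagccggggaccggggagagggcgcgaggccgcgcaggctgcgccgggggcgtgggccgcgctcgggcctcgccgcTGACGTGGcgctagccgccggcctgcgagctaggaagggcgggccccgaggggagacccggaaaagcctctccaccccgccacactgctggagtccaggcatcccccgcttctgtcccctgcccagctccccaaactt
The core of the hypoxia response element, ACGTG or GCGTG, is short and lies within TGACGTGG. It was found in 38.6% of all windows and in all 10 genes. The count of genes pools their 13 windows, of which 1 window of *Erp44* held none. *Txndc5* held the core most often, 6 times over its 3 windows. *Ero1a* held it 3 times, shown in capitals at chr14:45318573-45318822 on the minus strand, where the block nearest the start lies on the opposite strand:
Ero1a: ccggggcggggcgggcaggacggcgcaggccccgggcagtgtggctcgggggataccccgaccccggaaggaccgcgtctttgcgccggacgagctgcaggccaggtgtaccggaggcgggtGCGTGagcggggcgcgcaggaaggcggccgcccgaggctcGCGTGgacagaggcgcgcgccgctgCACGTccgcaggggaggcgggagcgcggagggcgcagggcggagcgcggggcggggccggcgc
Only exact matches were searched. A site that differs by 1 letter, such as CCAAT, 9 further bases and CCACA before *Pdia3*, was therefore not counted. These matches are descriptions of letters and were not tested as binding sites.

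Levels are given as FPKM, fragment counts divided by transcript length and by library size, which allows genes to be compared per length. Of 11 marker genes of retinal neurons and Muller glia, 0 were listed at 0 throughout a group. The same held for the lens fibre, pigment epithelium, endothelial, fibroblast and microglia and macrophage lists, so it does not tell retina from other tissue. Summed FPKM of 12 lens fibre genes ranged from 5.83 to 9618 across libraries, so lens RNA was present in unequal amounts, and those of 10 pigment epithelium genes from 28.8 to 373. *Atf6* itself was at 14.6 to 16.1 FPKM in the *Atf6*+/+ OIR libraries and at 13.6 to 16.8 in the *Atf6*-/- OIR libraries, so its gene-level FPKM did not separate the genotypes and gives no check of the labels. Saline replicates 4 and 5 stood apart from the other saline libraries: *Glul*, the glutamine synthetase of Muller glia, was at 254 and 330 FPKM in them and at 624 to 1024 in the other 3. In Ceapin-A7 replicate 3, 1 fragment was worth more FPKM than elsewhere, which gives a relative depth of 0.71 against 1.0 in the other 19. The study's methods describe animals from separate breeding pairs, but the labels do not tie a library to an animal or litter, so p-values measure the spread between these samples.

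The 2 most abundant of the 10 enzymes were the classical isomerases. *P4hb*, which encodes protein disulfide isomerase itself, and *Pdia3*, the isomerase ERp57 that works with calnexin and calreticulin on glycoproteins, together made up 50.8 to 55.1% of the summed FPKM of the 10 genes in the 20 libraries. The sum was 356 ± 30.6 FPKM in *Atf6*+/+ OIR, 341 ± 11.97 in *Atf6*-/- OIR, 272 ± 9.95 in saline-treated and 270 ± 10.7 in Ceapin-A7-treated retinas (mean ± SD, n = 5 each). In *Atf6*+/+ OIR retinas the order of mean levels was *P4hb* (94.6 FPKM), *Pdia3* (91.4), *Txndc12* (35.8), *Txndc5* (29.98), *Ero1a* (28.9), *Qsox1* (23.0), *Prdx4* (17.7), *Pdia5* (17.4), *Erp44* (11.5) and *Ero1b* (5.58). Neighbours in this order overlapped in their ranges except *Pdia3* and *Txndc12*, *Pdia5* and *Erp44*, and *Erp44* and *Ero1b*. In saline-treated retinas the order differed, with *Pdia3* (76.6) above *P4hb* (69.5) and *Txndc5* (25.6) above *Txndc12* (23.0), and each of these pairs overlapped in range. *Ero1b* was the lowest of the 10 in all 4 groups, and its range met that of no other member in any group.

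The spread between replicates set what each comparison could show. The coefficient of variation over the 5 libraries of a group was as low as 2.39%, for *Ero1a* after Ceapin-A7, and as high as 28.1%, also for *Ero1a*, in *Atf6*+/+ OIR. Its median over the 10 genes was 8.05% in *Atf6*+/+ OIR, 7.31% in *Atf6*-/- OIR, 6.69% in saline-treated and 6.46% in Ceapin-A7-treated retinas.

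**Figure D1:**
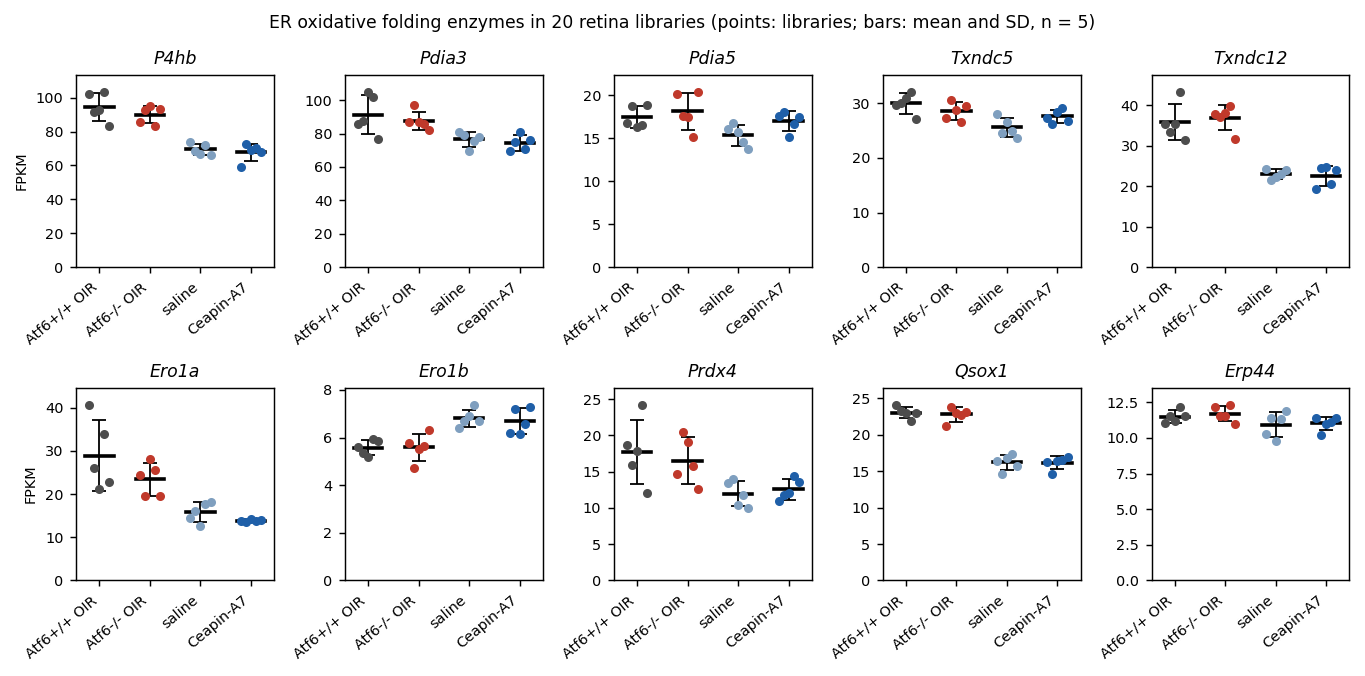
FPKM (vertical axis, from 0) of each of the 10 enzyme genes in the 4 groups; points are libraries, and bars are the mean and SD over 5 libraries. The *Atf6*+/+ and *Atf6*-/- OIR points overlap in every panel, as do the saline and Ceapin-A7 points, while *P4hb*, *Txndc12*, *Ero1a* and *Qsox1* lie higher and *Ero1b* lower in the P17 *Atf6*+/+ OIR libraries than in the P30 saline libraries.

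The first comparison asked whether the loss of *Atf6* changed the folding enzymes in OIR. None of the 10 genes differed between *Atf6*-/- and *Atf6*+/+ OIR retinas at an adjusted p under 0.05, the threshold at which a gene is described as called and one passed by 0.0318% of the 15704 genes tested, and none reached an unadjusted p of 0.05, which 12.7% of all genes did (limma). Under 3 alternatives 1 member passed that unadjusted threshold. It was *Ero1a* with a correction for transcript GC content (log2 fold change -0.36, limma unadjusted p = 0.0441, adjusted p = 0.475) or without *Atf6*+/+ replicate 3 (-0.36, adjusted p = 0.549), and *Txndc12* with array weights (0.15, limma unadjusted p = 0.0222, adjusted p = 0.0821). The groups overlapped for all 10 genes, and 1.78% of all genes did not overlap. The median log2 fold change of the 10 genes was -0.02, beside 0.00 for all genes tested.

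*P4hb* was at 102, 91.8, 92.9, 103 and 83.1 FPKM in the *Atf6*+/+ OIR replicates and at 85.7, 92.5, 95.1, 83.3 and 93.3 in the *Atf6*-/- OIR replicates. The 2 highest values belonged to *Atf6*+/+ retinas and the lowest to an *Atf6*+/+ retina too, and the log2 fold change was -0.05 (SE 0.07, 95% interval -0.20 to 0.10, adjusted p = 0.721), which spans a change from -13.1 to 7.05%. *Pdia3* had a log2 fold change of -0.03 (95% interval -0.20 to 0.13), with 76.9 to 105 FPKM in *Atf6*+/+ and 82.1 to 96.9 in *Atf6*-/- OIR retinas. *Txndc5* encodes ERp46, an isomerase with several thioredoxin domains, and its values were 29.8, 30.1, 30.9, 32.1 and 27.1 FPKM against 27.4, 30.6, 28.8, 26.6 and 29.4. These sets were interleaved, and the interval for *Txndc5* ran from -0.18 to 0.08 around -0.05. *Txndc12*, the small single-domain enzyme ERp18, had a log2 fold change of 0.07 (95% interval -0.10 to 0.23). *Pdia5*, an isomerase reported in cultured cells to act on the disulfide bonds of ATF6, was at 16.3 to 18.9 FPKM in *Atf6*+/+ and 15.1 to 20.4 in *Atf6*-/- OIR retinas, a log2 fold change of 0.07 (95% interval -0.15 to 0.28).

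*Ero1a*, the widely expressed ERO1 oxidase, was at 40.5, 26.1, 21.3, 33.9 and 22.7 FPKM in the *Atf6*+/+ OIR replicates and at 24.4, 19.5, 28, 25.5 and 19.6 in the *Atf6*-/- OIR replicates. *Atf6*+/+ replicates 1 and 4 lay above every *Atf6*-/- library, and the other 3 lay within the *Atf6*-/- range. The log2 fold change was -0.26 (SE 0.17, 95% interval -0.63 to 0.11, adjusted p = 0.488), and without *Atf6*+/+ replicate 1 it was -0.12. *Ero1b*, the ERO1 paralog best known from the endocrine pancreas and the member with an ERSE match, was at 5.18 to 5.94 FPKM in *Atf6*+/+ and at 4.71 to 6.31 in *Atf6*-/- OIR retinas, a log2 fold change of 0.01 (95% interval -0.19 to 0.22). *Qsox1* encodes a sulfhydryl oxidase that joins a thioredoxin domain to an oxidase domain and works mainly in the Golgi and outside the cell. It was at 21.9 to 24.02 and 21.1 to 23.8 FPKM, and its interval, -0.13 to 0.13 around 0.00, left room for a change of -8.33 to 9.36%. *Prdx4*, peroxiredoxin 4, ranged widely in both genotypes (12.03 to 24.2 and 12.6 to 20.5 FPKM), and its interval was as wide as -0.41 to 0.28. *Erp44*, a thiol chaperone that returns ERO1 and peroxiredoxin 4 to the ER, had a log2 fold change of 0.04 (95% interval -0.08 to 0.16).

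The genes that work with these enzymes were read from 3 further lists. Beside them, 12.7% of all genes reached an unadjusted p of 0.05. Of 22 other ER thiol-disulfide enzymes tested, none was called and 1 reached an unadjusted p of 0.05, *Tmx3*, a membrane-bound isomerase (log2 fold change 0.22, SE 0.09, adjusted p = 0.373). Their median was 0.05. Of 6 partner proteins, with a median of -0.18, none was called, and 2 reached an unadjusted p of 0.05, both of them α subunits of prolyl 4-hydroxylase, the collagen-modifying enzyme in which P4HB is the β subunit. *P4ha3* was at 0.96, 0.83, 0.87, 0.87 and 0.99 FPKM in *Atf6*+/+ and at 0.67, 0.53, 0.48, 0.45 and 0.46 in *Atf6*-/- OIR retinas. The 2 genotypes did not overlap for *P4ha3* (log2 fold change -0.69, SE 0.13, unadjusted p = 0.000191, adjusted p = 0.177). Of 5 fibroblast genes tested, none was called and 2 reached an unadjusted p of 0.05, the collagen genes *Col3a1* (-0.64) and *Col1a1* (-0.90), with a list median of -0.51 and summed levels of 12.2 to 14.95 FPKM in *Atf6*+/+ and 9.61 to 13.9 in *Atf6*-/- OIR retinas. Their part in the *P4ha3* values was not tested. *P4ha1* had a log2 fold change of -0.22 (SE 0.10, adjusted p = 0.381), with 18.3 to 25.5 against 15.8 to 20.3 FPKM. The ratio of *P4ha1* to *P4hb* within a library was 0.238 ± 0.0104 in *Atf6*+/+ and 0.212 ± 0.0256 in *Atf6*-/- OIR retinas (n = 5 each, exact two-sided permutation test, p = 0.0556, adjusted over 5 ratio tests 0.179). Of the 10 genes on the ATF6 target list, none was called and 1 reached an unadjusted p of 0.05, *Sdf2l1* (log2 fold change -0.46, SE 0.16, adjusted p = 0.362), and their median was -0.17. *Hspa5*, the chaperone BiP, had a log2 fold change of -0.17 (95% interval -0.36 to 0.02).

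Over the 20 libraries, with each gene's log2 values centred within the 4 groups, the genes most like *Ero1a* among 12997 with a mean of at least 1 FPKM were *Kdm3a*, a histone demethylase that hypoxia raises (Pearson r = 0.928), and *Prkab2*, a subunit of AMP-activated protein kinase (r = 0.884). Without the 2 libraries farthest from the *Ero1a* median, r was 0.925 and 0.934. On a list of 10 measured hypoxia genes, r with *Ero1a* ran from 0.0513 for *Ndrg1* to 0.871 for *Bnip3*. These correlations are descriptions over 20 libraries that share groups, scaling and fragment counts, and *Kdm3a* and *Prkab2* were picked for the highest r. *Atf6*+/+ OIR replicates 1 and 4, the 2 highest in *Ero1a*, were also the 2 highest in *Vegfa* (262 and 250 FPKM) and in *Bnip3* (177 and 192) among the *Atf6*+/+ OIR libraries. *Atf6*-/- OIR replicate 3, the highest of its group in *Ero1a*, was likewise the highest of its group in *Vegfa* (232) and *Bnip3* (141). The rest of the list had *Atf6*+/+ replicates 1 and 4 highest too, except *Adm*, *Slc2a1* and *Ndrg1*. In these, replicate 2 lay above replicate 4 (13.9 against 12.9, 187 against 179 and 174 against 162 FPKM). *Ndrg1* was also not highest in *Atf6*-/- replicate 3 (182 against 185 in replicate 2). *Bnip3* had the highest r of the list, so its order restates that r. Of the 10 hypoxia genes, none was called between the OIR groups and 4 reached an unadjusted p of 0.05, beside 12.7% of all genes. These 4, all lower in *Atf6*-/- retinas, were *Egln3*, *Adm*, *Vegfa* and *P4ha1*, and the median of the list was -0.24. Their part in the *Ero1a* values was not tested.

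**Figure D2:**
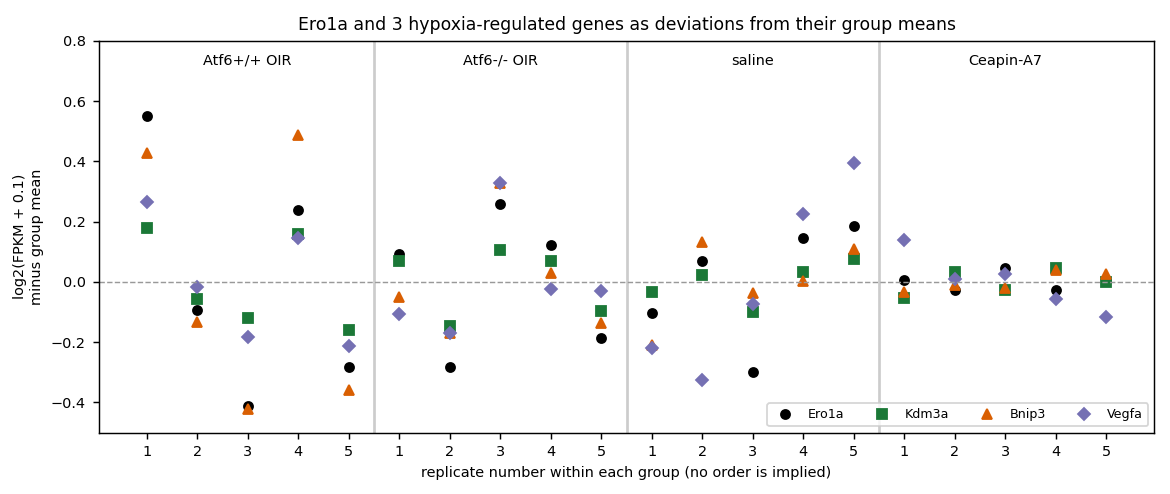
Deviation of *Ero1a*, *Kdm3a*, *Bnip3* and *Vegfa* from their group means (log2(FPKM + 0.1), vertical axis) in each of the 20 libraries, grouped by condition. *Ero1a* lies 0.55 above its group mean in *Atf6*+/+ OIR replicate 1, where the other 3 genes also lie above theirs, and *Ero1a* deviates least in the Ceapin-A7 libraries.

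For the other members, the nearest gene to *Pdia3* was *Pdia6*, another isomerase (r = 0.793, and 0.641 without the 2 libraries farthest from the *Pdia3* median), followed by *Coa6* (0.766, and 0.788 without them), so the order of these 2 genes turned when those libraries were left out. The nearest genes were *Galk1* (0.816) and *Lgi4* (0.783) to *P4hb*, *Nkiras2* (0.880) and *Rnaseh2c* (0.876) to *Txndc5*, *Rgs22* (0.840) and *Ccdc28a* (0.798) to *Txndc12*, and *Cds1* (0.855) and *Fam53b* (0.843) to *Pdia5*. They were *Vps13d* (0.860) and *D130040H23Rik* (0.817) to *Ero1b*, *Mmadhc* (0.872) and *Slc35f6* (0.844) to *Prdx4*, *Cyp2s1* (0.784) and *Hhipl1* (0.772) to *Qsox1*, and *LOC118568718* (0.843) and *Gm5148* (0.830) to *Erp44*. Without the 2 libraries farthest from the *Ero1b* median, its 2 values were 0.685 and 0.730, so their order turned as well. Left out in the same way, the values were 0.761 and 0.707 for *P4hb* and 0.770 and 0.755 for *Prdx4*. Each nearest gene was picked for the highest r among 12997 genes, which by itself favours high values. How high unrelated genes would reach was not tested. Among the 10 members themselves, 22 of 45 pairs had r above 0, with a median of -0.00206, a lowest value of -0.557 and a highest of 0.610, between *Pdia3* and *Prdx4*.

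The second comparison asked whether 24 h of chemical ATF6 inhibition changed the folding enzymes in P30 retinas without OIR. None of the 10 genes was called between Ceapin-A7-treated and saline-treated retinas. The background was 0.0% of 15408 genes, with 10.4% at an unadjusted p of 0.05 or less and 1.47% without overlap between the groups (limma). One member, *Ero1a*, reached an unadjusted p of 0.05, and the groups overlapped for all 10.

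*Ero1a* was at 14.6, 16.04, 12.5, 17.7 and 18.1 FPKM in the saline replicates and at 13.7, 13.4, 14.3, 13.7 and 13.9 after Ceapin-A7. All Ceapin-A7 values lay between the lowest saline value and the next, and the log2 fold change was -0.18 (SE 0.08, 95% interval from -0.36 to just under 0, unadjusted p = 0.0500, adjusted p = 0.480). The 2 highest saline values were those of replicates 4 and 5, which also held the highest *Vegfa* (84.2 and 94.1 FPKM) and *Hspa5* (138 and 162) and the lowest *Glul* of the saline group. Without these 2 libraries the log2 fold change of *Ero1a* was -0.07 (adjusted p = 0.990).

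*Pdia5* and *Txndc5* lay slightly higher after Ceapin-A7, without passing the test. *Pdia5* was at 16.02, 16.7, 15.8, 14.6 and 13.7 FPKM after saline and at 17.5, 18.1, 15.2, 16.6 and 17.5 after Ceapin-A7 (log2 fold change 0.14, SE 0.07, 95% interval -0.01 to 0.30, adjusted p = 0.492). *Txndc5* was at 28.1, 24.6, 26.7, 24.9 and 23.7 FPKM after saline and at 27.4, 26.3, 28.4, 29.2 and 26.8 after Ceapin-A7 (log2 fold change 0.11, SE 0.05, adjusted p = 0.490). In both genes the lowest library was saline replicate 5, and without saline replicates 4 and 5 both log2 fold changes were 0.05. The other isomerases and oxidases lay close to 0, with *P4hb* at -0.04 (95% interval -0.16 to 0.08), *Pdia3* at -0.04 (-0.16 to 0.08), *Txndc12* at -0.04 (-0.19 to 0.12), *Ero1b* at -0.03 (-0.17 to 0.11), *Qsox1* at 0.00 (-0.12 to 0.11), *Prdx4* at 0.08 (-0.15 to 0.31) and *Erp44* at 0.01 (-0.11 to 0.14). *P4hb* in saline-treated retinas was 69.5 ± 3.31 FPKM and 67.7 ± 5.03 after Ceapin-A7 (mean ± SD, n = 5 each).

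Of the 22 other ER thiol-disulfide enzymes tested after Ceapin-A7, none was called and 3 reached an unadjusted p of 0.05, beside 10.4% of all genes. *Pdia6* had a log2 fold change of -0.13 (SE 0.05, adjusted p = 0.472), *Selenom*, an ER selenoprotein, of 0.13 (SE 0.05) and *Vkorc1*, the vitamin K epoxide reductase, of 0.19 (SE 0.08). Of the partner proteins, *P4ha3* again reached it, at 0.27, 0.17, 0.18, 0.61 and 0.31 FPKM after saline and 0.06, 0.08, 0.12, 0.19 and 0.12 after Ceapin-A7 (log2 fold change -0.87, SE 0.28, adjusted p = 0.472). The 2 highest saline values of *P4ha3* and the 2 lowest of *Vkorc1* (14.3 and 14.53 FPKM) were those of saline replicates 4 and 5. The groups overlapped for *P4ha3* at these low levels, and the scale with a pseudocount of 0.1 understates such a change. None of the 10 ATF6 targets reached an unadjusted p of 0.05, and *Hspa5* had a log2 fold change of -0.10 (95% interval -0.33 to 0.13).

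The difference between the genetic and the chemical contrast was tested directly over all 20 libraries. It was called for none of the 10 genes, beside 0.032% of the 15628 genes tested, and none reached an unadjusted p of 0.05, beside 9.2% of all genes. *Txndc5* came nearest, with -0.05 in the genetic and 0.11 in the chemical contrast and a difference of -0.16 (SE 0.08, 95% interval -0.32 to 0.00, adjusted p = 0.544). For *Ero1a*, whose log2 fold change was below 0 in both contrasts, the difference was -0.07 with an interval of -0.50 to 0.35. The animals of these contrasts differ in age, oxygen exposure and injection, which cannot be told apart from the use of a knockout or an inhibitor.

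**Figure D3:**
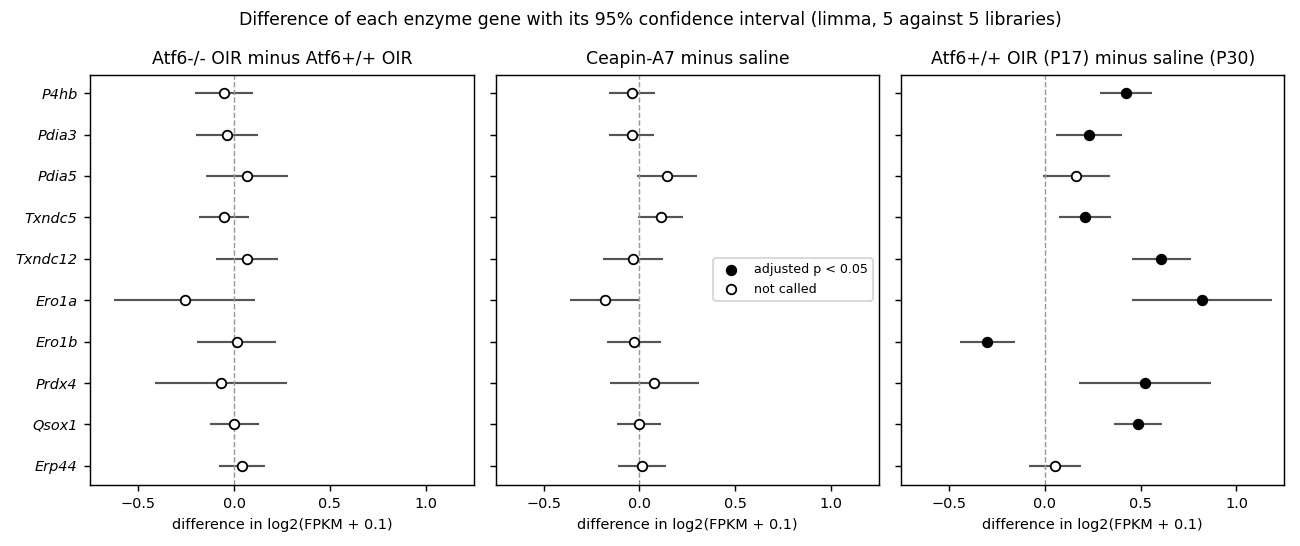
Log2 difference of each gene (horizontal axis, log2(FPKM + 0.1)) with its 95% confidence interval for 3 comparisons of 5 against 5 libraries; filled points have an adjusted p under 0.05. No point is filled in the knockout and Ceapin-A7 panels. In the panel of P17 *Atf6*+/+ OIR against P30 saline 8 of 10 are filled, beside 55.5% of all genes called.

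The widest differences among the 10 genes lay between the control groups of the 2 experiments. Between P17 *Atf6*+/+ OIR and P30 saline-treated wild-type retinas, age, oxygen exposure, injection and any processing batch cannot be told apart. Of the 10 genes, 8 were called, beside 55.5% of the 15655 genes tested. Higher at P17 were 7 of them (27.8% of all genes were called higher) and lower was 1 (27.7% of all genes). The median log2 difference was 0.33 over the 10 genes and 0.01 over all genes, and 5 of the 10 did not overlap between the groups, beside 41.3% of all genes. Without saline replicates 4 and 5, 5 of the 10 genes were called, beside 51.5% of the 15668 genes tested in that fit.

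*Ero1a* had the largest difference of the 10. Its lowest P17 *Atf6*+/+ OIR value, 21.3 FPKM, lay above the highest saline value, 18.1, and its log2 difference was 0.82 (SE 0.17, 1.76-fold, adjusted p = 0.00136). *Ero1b* went the other way: the P17 values were 5.59, 5.33, 5.18, 5.94 and 5.86 FPKM and the saline values 6.40, 6.69, 6.89, 7.35 and 6.69. The groups did not overlap, and *Ero1b* was lower at P17 than after saline by 0.30 on the log2 scale (SE 0.07, adjusted p = 0.00217). With a correction for transcript GC content the log2 difference of *Ero1b* was -0.16 (adjusted p = 0.0467). Within a library, the ratio of *Ero1a* to *Ero1b*, which no scaling of libraries changes, was 5.17 ± 1.37 in P17 *Atf6*+/+ OIR and 2.32 ± 0.322 in saline-treated retinas, with 3.88 the lowest of the former and 2.70 the highest of the latter. This ratio is a description with no test, since both genes already separate the groups in opposite directions. In *Atf6*-/- OIR retinas the ratio was 4.22 ± 0.722 (against *Atf6*+/+ OIR p = 0.238, exact two-sided permutation test, adjusted 0.298) and after Ceapin-A7 2.08 ± 0.199 (against saline p = 0.198, exact two-sided permutation test, adjusted 0.298). The ratios were chosen after values were seen.

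**Figure D4:**
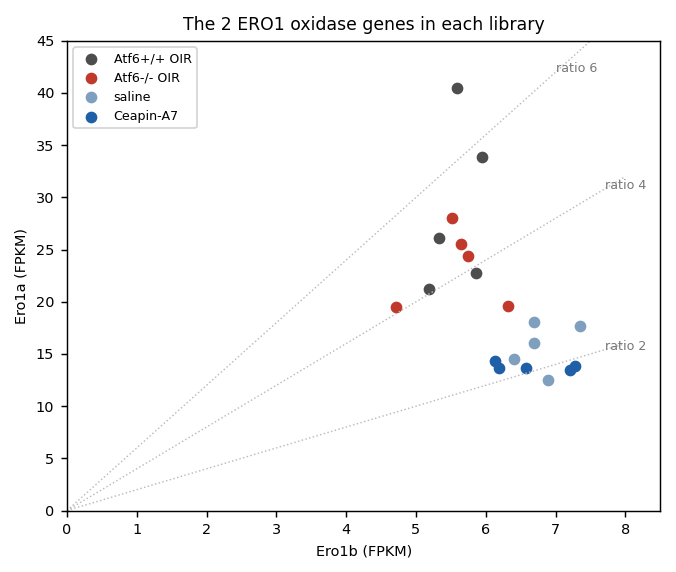
*Ero1a* (vertical axis, FPKM) against *Ero1b* (horizontal axis, FPKM) in the 20 libraries, with dotted lines at ratios of 2, 4 and 6. P17 OIR libraries of both genotypes lie at ratios from 3.10 to 7.25 and P30 libraries from 1.82 to 2.70.

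Among the isomerases, *Txndc12* differed most, at 35.4, 33.5, 35.4, 43.3 and 31.5 FPKM at P17 and 24.2, 21.6, 22.3, 23.1 and 23.97 after saline. The groups lay far apart (log2 difference 0.61, SE 0.07, 1.52-fold, adjusted p = 2.30e-05). *P4hb* was 1.34-fold higher at P17 (log2 difference 0.42, SE 0.06), with 83.1 to 103 FPKM against 66.2 to 73.6 and no overlap. *Pdia3* was 1.17-fold higher at P17 (log2 difference 0.23, adjusted p = 0.0274) and *Txndc5* 1.16-fold (0.21, adjusted p = 0.0122), and both overlapped between the groups. The call on *Pdia3* was lost without *Atf6*+/+ OIR replicate 3 (adjusted p = 0.0689), *Atf6*+/+ OIR replicate 4 (0.0526), saline replicate 3 (0.0693) or saline replicate 4 (0.0585), and *Pdia3*, *Txndc5* and *Prdx4* were no longer called without saline replicates 4 and 5. *Qsox1* was at 21.9 to 24.02 FPKM at P17 and at 14.7 to 17.4 after saline (log2 difference 0.49, SE 0.06, 1.40-fold). *Prdx4* had a log2 difference of 0.52 (SE 0.16, adjusted p = 0.0139), with 12.03 to 24.2 FPKM against 10.04 to 13.95 and an overlap between the groups. *Pdia5* (0.17, adjusted p = 0.0987) and *Erp44* (0.05, adjusted p = 0.477) did not pass the test. With the GC correction *Erp44* was called (0.22, adjusted p = 0.00557) and *Txndc5* was not (0.15, adjusted p = 0.0518), and *Pdia5* was called on FPKM as deposited (0.18, adjusted p = 0.0455).

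Among all genes 55.5% were called between P17 *Atf6*+/+ OIR and P30 saline, 27.8% higher and 27.7% lower at P17. Of 22 other ER thiol-disulfide enzymes, 14 were called, 4 higher and 10 lower at P17, with a median log2 difference of -0.20. The 5 with the smallest p were all lower, among them *Tmx4* (-0.87), *Tmx3* (-0.69), *Vkorc1l1* (-0.59), *Txndc15* (-0.57) and *Qsox2* (-0.54), the paralog of *Qsox1*. Of the 6 partner proteins, 3 were called. *Calr*, calreticulin, was higher (0.55, SE 0.08) and *Canx*, calnexin, lower (-0.40, SE 0.06), with no overlap for either of these lectin chaperones that recruit ERp57, and *P4ha3* was higher (1.38, SE 0.23). Of the 10 ATF6 targets, 4 were called higher and 3 lower, among them *Pdia4* (0.48), another isomerase, *Creld2* (0.38), *Dnajb11* (-0.28) and *Herpud1* (-0.35).

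Markers of other cells and of hypoxia differed between the same groups. Among all genes 27.8% were called higher and 27.7% lower at P17. All 8 microglia and macrophage genes were called higher at P17 with a summed level of 80.6 to 126 FPKM against 32.4 to 44.1, and 6 of 8 endothelial genes with 108 to 169 against 75.5 to 93.9. Of 10 hypoxia genes, 6 were called higher, with a summed level of 705 to 1003 against 417 to 523 FPKM, and *Vegfa* was 3.09-fold higher. Of 10 pigment epithelium genes, 5 were called lower, and lens fibre genes, none of them called, summed to 9.24 to 529 against 8.6 to 5341 FPKM. Of 6 fibroblast genes, 3 were called higher, with a summed level of 12.2 to 14.95 against 3.48 to 13.5 FPKM. Of 11 genes of retinal neurons and Muller glia, 2 were called higher and 2 lower. In bulk tissue fewer cells of a type and less RNA per cell cannot be told apart, and the part of these markers in the differences of the folding enzymes was not tested.

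The same markers were read in the 2 main comparisons. Between the OIR groups none of the marker genes was called, while 12.7% of all genes reached an unadjusted p of 0.05. At that threshold 9 of 11 lens fibre genes were lower and 6 of 10 pigment epithelium genes higher in *Atf6*-/- retinas. At the same threshold 2 of 8 endothelial genes (*Erg* and *Egfl7*), 2 of 5 fibroblast genes and 1 of 8 microglia and macrophage genes were lower, and 0 of 11 genes of retinal neurons and Muller glia reached it. Lens fibre genes summed to 9.24 to 529 FPKM in *Atf6*+/+ and 5.83 to 9.40 in *Atf6*-/- OIR retinas, pigment epithelium genes to 28.8 to 141 and 102 to 334, and endothelial genes to 108 to 169 and 102 to 145. After Ceapin-A7 none was called either, while 10.4% of all genes reached an unadjusted p of 0.05. At an unadjusted p of 0.05, 3 of 11 genes of retinal neurons and Muller glia were higher (*Arr3*, *Glul* and *Sag*), as were 2 of 6 fibroblast genes, 1 of 8 endothelial and 1 of 8 microglia and macrophage genes, while 2 of 10 pigment epithelium genes were higher and 2 lower, and 0 of 12 lens fibre genes reached it. The Ceapin-A7 libraries had lens fibre sums of 91.5 to 9618 FPKM, pigment epithelium sums of 129 to 373 and fibroblast sums of 7.51 to 38.4. Their part in the values of the 10 genes was not tested.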

How the data were processed

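Bulk RNA-Seq FPKM were analysed in 20 libraries, 5 in each of 4 groups taken from the sample labels. From stranded mRNA libraries the authors computed and deposited FPKM to 2 decimals, for which the submitters' processing notes name HISAT2 (version 2.0.4), GRCm39 and RSEM (version 1.2.18), with 19368 genes in the OIR tables and 19102 in the injection tables. The notes also name DESeq2 (version 1.4.5), which was not used here. The deposited FPKM are not counts, so no count model was fitted.

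Libraries were scaled by median-of-ratios factors, and genes whose mean FPKM exceeded 0.1 were tested as log2(FPKM + 0.1) with limma (version 3.58.1, trend) in R (version 4.3.3). All 10 members passed this filter in every comparison. A gene was called at a Benjamini-Hochberg adjusted p under 0.05 over all genes tested. All fold changes refer to this scale. The fit was tested on simulated data. Low FPKM values gave the relative depth. Summed FPKM per library were 410598 to 455957. No 2 libraries were identical. The number of per-sample columns left unused was 0.

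The members and gene lists were chosen with earlier results of these data known. Of each list, up to 5 genes with the smallest unadjusted p at or under 0.05 are eligible to be named in a comparison, with *P4ha1*, *Hspa5* and *Vegfa*, and for each member the 2 genes most like it. *Atf6*, *Glul*, *Bnip3*, *Ndrg1*, *Slc2a1* and the ratios within a library were chosen after values were seen. Promoters and GC content came from GRCm38 annotations. GC content was found for 98.4% of genes tested in OIR. The alternatives were other pseudocounts, filters and scalings, limma without trend or with array weights, all 20 libraries in 1 fit, a replicate block and leaving out each library.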

Additional observations from a re-analysis of the deposited data

How the results depend on the processing

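No member was called in the genetic, the chemical or the direct test under any alternative (lowest adjusted p 0.0821, 0.254 and 0.245). Of their fold changes, none of which was called, 12 of 120, 5 of 130 and 16 of 120 changed sign under other settings and 9 of 100, 11 of 100 and 23 of 200 with 1 library left out, to at most 0.106 on the log2 scale. Array weights moved *Ero1a* in the genetic contrast to -0.07 and raised all genes called from 5 to 2772 there and from 5 to 744 in the direct test. Without a filter 9 genes were called in the genetic contrast, 11 in a fit of all 20 libraries and 9 without *Atf6*-/- replicate 5 and leaving out libraries gave 3 to 12 in the direct test. In P17 *Atf6*+/+ OIR against P30 saline no member changed direction. In the fit described 8 were called, beside 55.5% of all genes, and 5 without saline libraries 4 and 5, beside 51.5%. With a correction for GC content 8 were called, with the replicate block 7 and without any 1 library 7 or 8. The shares of all genes in these last fits are not given here, so their counts describe the members only. *Pdia3* was lost under the replicate block (adjusted p = 0.0699), *Txndc5* with the GC correction (0.0518), and *Erp44* was called with it (0.22). FPKM as deposited added *Pdia5*. Leaving out saline libraries 4 and 5 and the GC correction were chosen after seeing the data.

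The replicate number did not pair the libraries: deviations of libraries with the same number had correlations of -0.405 to 0.418 in the OIR groups and -0.30 to 0.425 in the injection groups. As a block it left 0 members called in the genetic, chemical and direct tests. Log2 fold changes in the genetic contrast followed transcript GC content across genes (Spearman correlation -0.476, genes not being independent). The same correlation was -0.351 in the direct test, 0.235 in P17 *Atf6*+/+ OIR against P30 saline and -0.0997 in the chemical contrast. Depth is not known from FPKM except relative to other libraries, and 2 decimals limit genes near the filter, such as *P4ha3*.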
